A study of Oryza sativa Indica Group with 36 samples.

Results

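Photorespiration enzymes and the leaf catalase CatC were followed in rice leaves over a day, in the indica cultivar Guangluai4 (GL) and in the line OsPRR37-OE5, which overexpresses OsPRR37 in the Guangluai4 background (OE). The set was chosen by 9 gene identifiers. Of these, 8 had a row among the 35477 loci of the deposited tables, and all 8 passed the filter on low counts that left 21772 genes for testing. The ninth, OS07G0152900, which the rule calls OsGLO4, was not analysed here; the reference table, on another assembly, places the name GLO4 near OS07G0616500 instead. RNA was sequenced from the uppermost leaves that had fully expanded, on 45-day seedlings in natural long days, every 4 h from 4:00 to 0:00 of a single day. Each genotype at each hour has 3 biological repeats, which makes 12 groups and 36 libraries. OsPRR37 belongs to the pseudo-response regulators, components of the plant circadian clock, and represses flowering under long days. No source used here gives the promoter of the transgene or the number of plants in a repeat. Since 1 transgenic line was sequenced, what OsPRR37 does and what else distinguishes that line cannot be told apart.

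Photorespiration recovers carbon from the 2-phosphoglycolate that Rubisco makes when it takes up oxygen in place of carbon dioxide. Glycolate oxidase in peroxisomes turns glycolate into glyoxylate and releases hydrogen peroxide, which catalase removes. Glyoxylate is aminated to glycine, mitochondrial glycine decarboxylase and serine hydroxymethyltransferase (SHMT) make serine from it, and peroxisomal enzymes return serine to glycerate through hydroxypyruvate. In leaves of plants such as rice this flux runs in the light beside photosynthesis.

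The libraries held 8065894 to 15769659 counts each (median 12531717). OsPRR37 itself, the check of the transgene, had group means from 2.17 CPM (counts scaled to library size) at 4:00 to 456 CPM at 12:00 in GL, and from 842 to 1547 CPM in OE, with no overlap between genotypes at any hour. For GL replicate 3 at 0:00 the labels disagree: the title puts it in GL, where it was kept, and the genotype field in the overexpression line. Its OsPRR37 level lay with GL: no library kept in GL exceeded 505.4 CPM, and no OE library was under 799.6 CPM. Among leaf markers, the Rubisco small subunit gene OS12G0274700 lay between 3592 and 23079 CPM in all libraries, and the light-harvesting gene Lhcb1 between 88.6 and 24466 CPM in GL and between 14.7 and 16542 CPM in OE. The Rubisco activase row was listed at 0 in 9 of 36 libraries and was not used. The meristem marker OSH1 was listed at 0 in all 36, and the secondary-wall genes OsCesA4, OsCesA7 and OsCesA9 reached at most 10.5 CPM. Lsi1, a silicon channel used as a root marker, lay between 10.8 and 70.3 CPM.

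Per transcript length, OsSGAT had the highest median over the day and OsGLO3 by far the lowest. In deposited FPKM (fragments per unit of transcript length and library size), the medians over the 18 GL libraries were 4046 for OsSGAT, 2723 for OsGLDH, 2567 for OsGLO1, 2294 for OsSHMT1, 2030 for CatC, 1922 for OsHPR1, 307 for OsGLDP and 1.18 for OsGLO3. Over the 18 OE libraries the FPKM medians were 3468 for OsSGAT, 3197 for OsGLDH, 2591 for OsGLO1, 1945 for OsHPR1, 1938 for CatC, 1778 for OsSHMT1, 227 for OsGLDP and 1.61 for OsGLO3. The ranges over the day of neighbours in this order overlapped, except that OsGLO3 lay below all the others. Its highest FPKM was 2.43 in GL and 2.74 in OE, while the lowest of OsGLDP was 25.3 and 13. The order of the others turned with the hour: at 12:00 in GL the mean FPKM was 4336 for CatC and 1594 for OsSGAT, and at 8:00 it was 4175 for OsSHMT1 and 2427 for OsSGAT. Together the 8 members took the largest share of all counts at 0:00, 3.17% ± 0.326 in GL and 3.21% ± 0.413 in OE (SD, n = 3), and the smallest at 16:00, 1.72% ± 0.0440 and 1.52% ± 0.268.

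**Figure D1:**
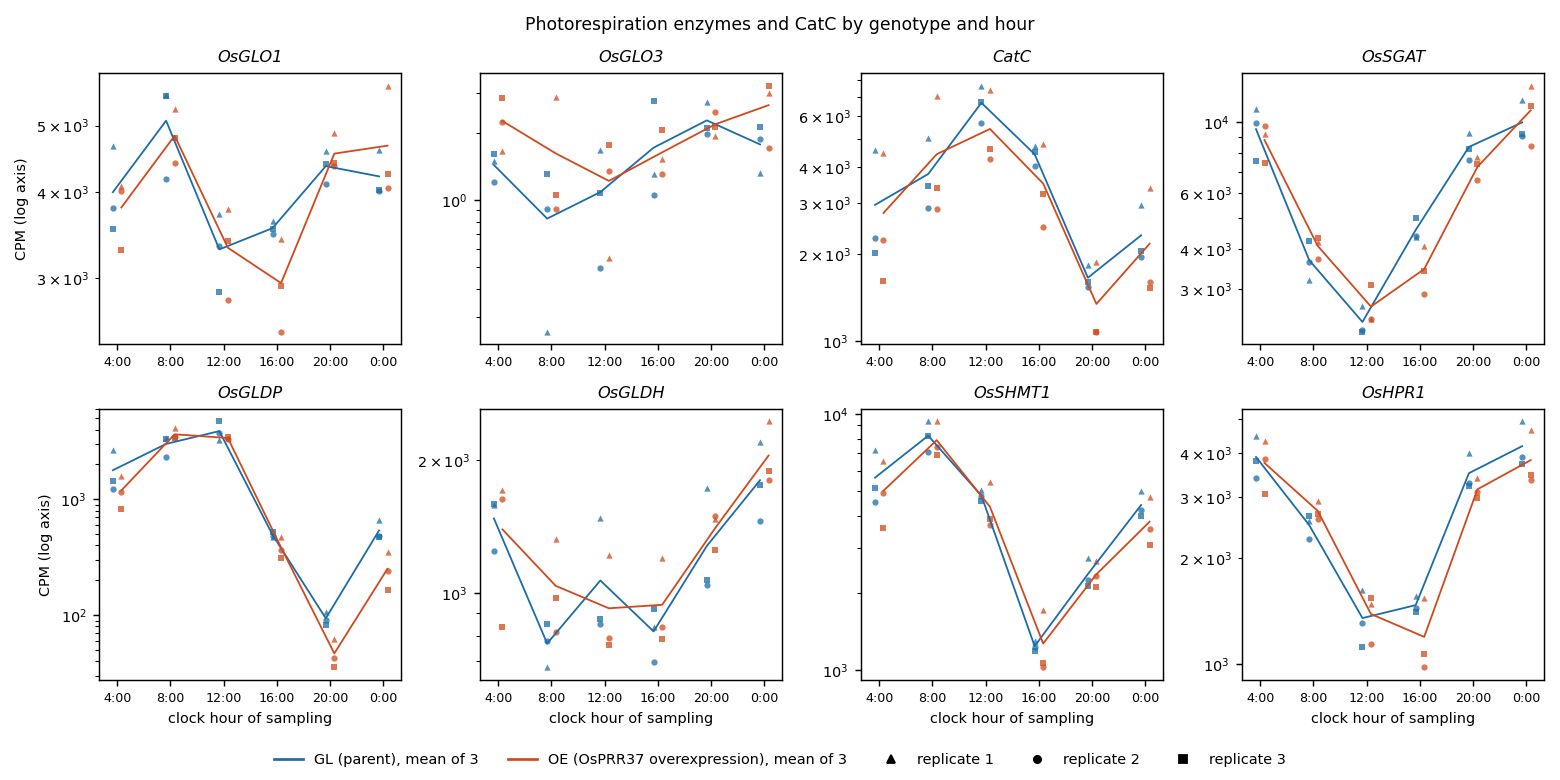
Level of each member in CPM (log axis) against the clock hour of sampling, with 0:00 drawn at the right. Points are the 36 libraries, with a marker for each replicate number, and lines join the means of 3 libraries in GL and OE. OsGLDP falls from at least 2335 CPM at 8:00 and 12:00 to under 108 CPM at 20:00 in both genotypes, and OsGLO3 stays under 3.3 CPM throughout.

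Over the day, 7 of the 8 members changed in GL and 7 in OE in the quasi-likelihood F test of edgeR across the 6 hours, where 69.7% and 68.6% of all tested genes did. OsGLO3 was the exception in both genotypes, with an adjusted p of 0.12 in GL and 0.28 in OE. With a fitted 24-h wave, 7 members were called in each genotype, beside 71.8% and 70.4% of all genes. There OsGLO1 was the exception, with an adjusted p of 0.31 in GL and 0.070 in OE. The period is assumed, since a single day was sampled. Fitted peaks in GL came at 23.9 h for OsSGAT, 0.33 h for OsGLDH, 1.11 h for OsHPR1, 5.98 h for OsSHMT1, 8.44 h for OsGLDP and 11.2 h for CatC. In OE they came at 0.55 h for OsSGAT, 0.27 h for OsGLDH, 1.79 h for OsHPR1, 6.13 h for OsSHMT1, 8.76 h for OsGLDP and 10.2 h for CatC. For OsGLO3, by far the lowest in level, the fitted peak was 20.8 h in GL and 0.03 h in OE. The members thus did not share a peak: OsSGAT, OsGLDH and OsHPR1 were highest at night, OsSHMT1 in the early morning, and OsGLDP and CatC later in the morning or at noon. Between neighbouring hours, the members called in GL were 4 of 8 from 4:00 to 8:00 (37.2% of all genes), 4 to 12:00 (36.2%), 3 to 16:00 (31.9%), 5 to 20:00 (26%), 2 to 0:00 (10.8%) and 1 from 0:00 to 4:00 (9.09%). In OE these were 3 (37.4%), 4 (33%), 2 (29.9%), 6 (26.4%), 2 (8.32%) and 1 (5.87%). No member differed between genotypes in the fitted rhythm, beside 0.0919% of all genes, and none had an unadjusted p under 0.05. The DESeq2 and limma tests also called 0 members.

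**Figure D2:**
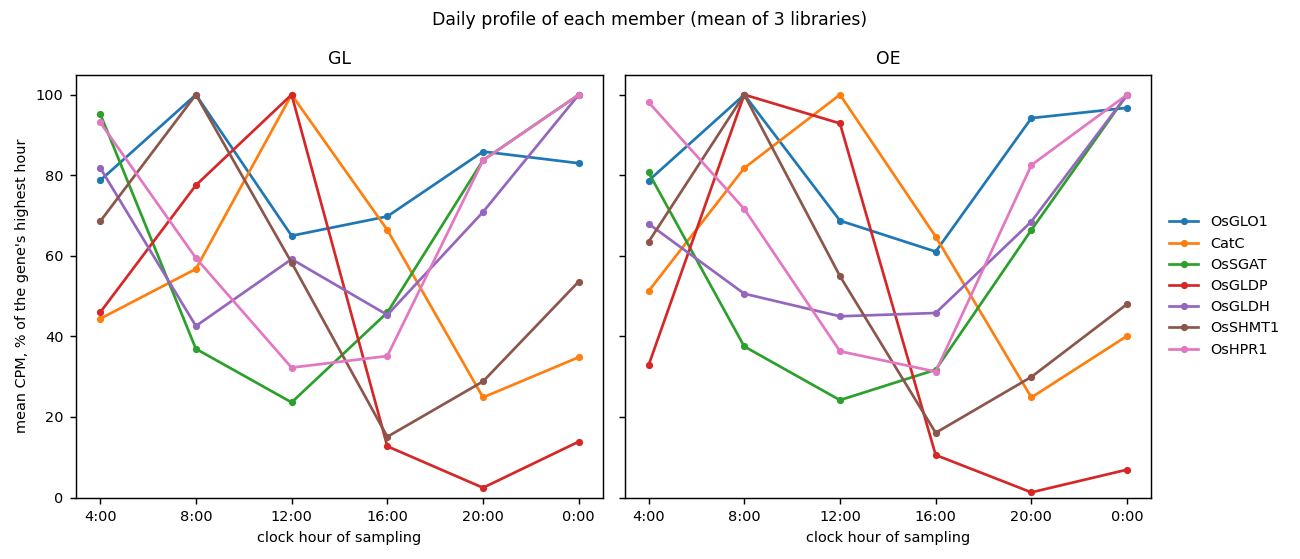
Mean CPM of 3 libraries at each hour as a percentage of the gene's highest hour, for GL at the left and OE at the right, with 0:00 drawn last. OsGLO3, with group means from 0.824 to 2.66 CPM, is left out. OsSGAT and OsHPR1 are lowest at 12:00 or 16:00, while CatC is highest at 12:00, and each gene has its highest hour in common between genotypes except OsGLDP, which is highest at 12:00 in GL and at 8:00 in OE.

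The first peroxisomal step is catalysed by glycolate oxidase. Of the glycolate oxidase members with a row, OsGLO1 was the more abundant, and it changed little over the day. In GL it was highest at 8:00, with 5547, 4182 and 5517 CPM in replicates 1 to 3, and lowest at 12:00, with 3712, 3336 and 2859 CPM. In OE it was highest at 8:00, with 5287, 4414 and 4796 CPM, and lowest at 16:00, with 3418, 2508 and 2923 CPM. Each genotype's 3 libraries at its highest hour lay above the 3 at its lowest, and the means differed 1.54-fold in GL and 1.64-fold in OE. Here and for the genes below, the highest and lowest hours were picked from these same libraries, so their separation is description and no test. A second high stretch followed at 20:00 and 0:00, when GL means were 4365 ± 237 and 4217 ± 342 CPM and OE means 4551 ± 281 and 4675 ± 908 CPM (SD, n = 3). This profile has 2 highs in 24 h, and the single wave did not pass its test for OsGLO1. The fall from 8:00 to 12:00 passed in GL (log2 -0.62, SE 0.161, adjusted p = 0.0029) and in OE (log2 -0.54, SE 0.161, adjusted p = 0.0097), and the rise from 16:00 to 20:00 passed in OE (log2 0.63, SE 0.161, adjusted p = 0.0041) but not in GL (log2 0.30, adjusted p = 0.18). The change of OsGLO1 over the day in GL was not called without replicate 1 or replicate 3 at 8:00 or replicate 3 at 12:00 (adjusted p 0.094, 0.089 and 0.072), and the OE fall from 8:00 was not called without OE replicate 1 at 8:00 or replicate 2 at 12:00 (adjusted p 0.081 and 0.074).

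Averaged over the hours, OsGLO1 differed between OE and GL by log2 -0.03 (SE 0.0654, adjusted p = 0.77). At 16:00 its 3 OE libraries lay below the 3 GL libraries, which had 3627, 3479.9 and 3533 CPM, and the difference of log2 -0.27 did not pass the test. OsGLO1 (OS03G0786100) spans 111169 bases of chromosome 3 in the deposited annotation (IRGSP-1.0, chr3:32521215-32632383, plus strand), although its transcript has 1774 bases, and 18 other loci lie within or overlap that span, 9 on each strand. The library kit does not mark the strand, so strand cannot separate reads where transcripts of opposite strands overlap. Whether any of these loci overlaps the exons of OsGLO1 was not examined.

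OsGLO3, another glycolate oxidase gene, was near the detection limit, with 2 to 53 counts per library. In GL the lowest library had 0.257 CPM and the highest 2.78 CPM, with a median of 1.41 CPM, and in OE these were 0.550, 1.85 and 3.26 CPM. The averaged difference was log2 0.37 (SE 0.195, adjusted p = 0.17). At 4:00 all 3 OE libraries, with 1.66, 2.24 and 2.87 CPM, lay above the GL libraries, with 1.49, 1.20 and 1.60 CPM, without passing the test (log2 0.65). The genotypes overlapped at the other 5 hours. OsGLO3 (OS04G0623500) lies at chr4:31689207-31692240 on the plus strand and overlaps 1 locus of the opposite strand. Its 24-h wave was called in OE (adjusted p = 0.037) but not in the 8 fits without OE replicate 3 at 4:00, replicate 2 or 3 at 8:00, replicate 1 or 2 at 12:00, replicate 2 at 16:00 or replicate 1 or 3 at 0:00, where the adjusted p reached 0.11.

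CatC (OS03G0131200, chr3:1787653-1790898, minus strand) encodes the catalase of leaf peroxisomes. It was highest at 12:00 and lowest at 20:00 in both genotypes. In GL its libraries had 7657, 5666 and 6695 CPM at 12:00 and 1840.4, 1535 and 1601 CPM at 20:00. In OE they had 7369, 4277 and 4613 CPM at 12:00 and 1877, 1081 and 1081 CPM at 20:00. All 6 noon libraries were above all 6 evening libraries, and the means differed 4.02-fold in GL and 4.03-fold in OE. The fall from 16:00 to 20:00 was the only step between neighbouring hours that passed for CatC, in GL by log2 -1.42 (SE 0.394, adjusted p = 0.0076) and in OE by log2 -1.38 (SE 0.393, adjusted p = 0.0090). Without OE replicate 1 at 16:00 the OE fall had an adjusted p of 0.054. No other step of CatC between neighbouring hours passed.

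The averaged difference of CatC between OE and GL was log2 -0.15 (SE 0.158, adjusted p = 0.53), and the genotypes overlapped at every hour. Part of that spread followed the replicate number. Replicate 1 of CatC was above the mean of replicates 2 and 3 at all 6 hours in both genotypes. The average excess was log2 0.51 in GL and 0.97 in OE. Over all genes the median of this signed difference was 0.01 and 0.00. Scaling between libraries keeps that median near 0, so it does not say how many genes shifted with replicate 1. Replicates 1 to 3 in OE had, for example, 7033, 2873 and 3393 CPM at 8:00 and 4825, 2474 and 3232 CPM at 16:00. Other members ran the same way: replicate 1 was higher at all 6 hours in both genotypes for OsGLO1, OsSHMT1 and OsHPR1 as well. With replicates 2 and 3 alone, CatC was called lower in OE averaged over the day (log2 -0.35, SE 0.069, adjusted p = 7.8e-04) and at 16:00 (log2 -0.55, SE 0.168, adjusted p = 0.030). In those libraries 31.1% and 17.9% of all genes were called. No source used here says what sets replicate 1 apart.

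OsSGAT (OS08G0502700, chr8:24828176-24831100, minus strand, with 1 overlapping locus on the other strand) encodes serine-glyoxylate aminotransferase, which uses serine to aminate glyoxylate. It ran opposite to CatC, high at night and low at noon. In GL its libraries had 11759, 9054 and 9169 CPM at 0:00 and 2653, 2226 and 2202 CPM at 12:00. In OE they had 13049.8, 8401 and 11265 CPM at 0:00 and 2407, 2416 and 3089 CPM at 12:00. The means differed 4.23-fold in GL and 4.13-fold in OE, with no overlap between the hours. OsSGAT fell from 4:00 to 8:00 by log2 -1.37 in GL (SE 0.183, adjusted p = 7.8e-07) and log2 -1.11 in OE (SE 0.182, adjusted p = 1.7e-05), and fell again to 12:00 in both. The second fall was not called without GL replicate 3 at 8:00 in GL (adjusted p = 0.060) or OE replicate 1 at 12:00 in OE (adjusted p = 0.056). The rise from 12:00 to 16:00 passed in GL (log2 0.96, SE 0.181, adjusted p = 1.2e-04) and not in OE (log2 0.39, SE 0.180, adjusted p = 0.10). From 16:00 to 20:00 it rose in both, by log2 0.87 in GL and 1.07 in OE. At 16:00 the OE libraries of OsSGAT, with 4097, 2882 and 3400 CPM, were all below those of GL, with 4366, 4399 and 5008 CPM. That difference of log2 -0.41 did not pass, nor did the genotype by hour interaction of OsSGAT (adjusted p = 0.73), so a difference between the genotypes in the afternoon rise was not shown.

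OsGLDP (OS01G0711400, chr1:29560037-29566859, plus strand) encodes the P protein of glycine decarboxylase, the subunit that removes the carboxyl group of glycine. It had the widest daily range of the members. In GL its libraries had 2664, 1229 and 1450.2 CPM at 4:00, 3366, 2335 and 3313 CPM at 8:00, and 3216, 3697 and 4715 CPM at 12:00. They then had 472, 481 and 526 CPM at 16:00, 107, 91.6 and 83.0 CPM at 20:00, and 658, 485 and 469.8 CPM at 0:00. From the highest to the lowest hour the GL mean fell 41.2-fold, and the steps 12:00 to 16:00 (log2 -2.97, SE 0.296, adjusted p = 4.4e-09) and 16:00 to 20:00 (log2 -2.39, SE 0.290, adjusted p = 2.7e-07) both passed. It rose again at night: from 20:00 to 0:00 OsGLDP rose by log2 2.52 (SE 0.291, adjusted p = 4.6e-07) and from 0:00 to 4:00 by log2 1.73 (SE 0.283, adjusted p = 6.6e-05).

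In OE, OsGLDP had 1587, 1164 and 828 CPM at 4:00, 4081, 3419.9 and 3410.2 CPM at 8:00, and 3396, 3324 and 3414 CPM at 12:00. It then had 476, 364 and 312 CPM at 16:00, 62.5, 42.4 and 35.6 CPM at 20:00, and 351, 241 and 164 CPM at 0:00. The mean fell 77.7-fold from 8:00 to 20:00. The steps of OE passed in the same directions as in GL between 12:00 and 4:00, and the rise from 4:00 to 8:00 was log2 1.61 (SE 0.282, adjusted p = 4.0e-05) in OE and log2 0.75 (SE 0.276, adjusted p = 0.032) in GL. The GL rise was not called without replicate 2 or 3 at 4:00 or replicate 1 or 3 at 8:00 (adjusted p 0.17, 0.13, 0.12 and 0.10). At 20:00 and 0:00 all 3 OE libraries lay below all 3 GL libraries, at 8:00 they lay above, and at 4:00, 12:00 and 16:00 the genotypes overlapped.

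OsGLDP was the one member of 8 called between OE and GL averaged over the hours, and it was lower in OE by log2 -0.49 (SE 0.113, adjusted p = 0.0015), or 0.710-fold, with a lower OE mean at 5 of 6 hours. Among all tested genes 26% were called in this contrast and 12% were called lower in OE, so that a single lower call among 8 members is near the background. The median log2 difference over the members was -0.06, beside -0.0028 over all genes. The call on OsGLDP held in each of the 36 fits without 1 library, with a log2 difference from -0.56 to -0.43. The other 7 averaged differences ran from log2 -0.15 for CatC to 0.37 for OsGLO3. Among the markers of other tissues, Lsi1 had a mean of 33.2 CPM in GL and 20.3 CPM in OE and separated, lower in OE, at 4:00, 12:00 and 16:00, and the senescence gene SGR had 11.6 and 12.6 CPM and separated, higher in OE, at 16:00 and 20:00. The secondary-wall genes had means of 2.16 to 3.74 CPM in GL and 3.28 to 4.86 CPM in OE, and overlapped at every hour. The leaf marker Lhcb1 had a mean of 6889.7 CPM in GL and 4673 CPM in OE, and separated, lower in OE, at 4:00, 16:00 and 20:00. The Rubisco small subunit genes overlapped at every hour. Their means in GL and OE were 10256.5 and 9813.6 CPM for OS12G0274700, and 9911 and 9306 CPM for OS12G0291100. Of all genes, 17.1% separated in either direction at 4:00, 16.4% at 12:00, 24.2% at 16:00 and 21.2% at 20:00. The part of these markers in the result on OsGLDP was not tested. In bulk leaves, fewer cells of a type and less RNA per cell cannot be told apart.

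By hour, the difference of OsGLDP was log2 -0.58 at 4:00 (adjusted p = 0.29), 0.28 at 8:00 (adjusted p = 0.69), -0.20 at 12:00 (adjusted p = 0.85) and -0.36 at 16:00 (adjusted p = 0.48). It passed at 20:00, with log2 -1.01 (SE 0.280, adjusted p = 0.049), and at 0:00, with log2 -1.10 (SE 0.279, adjusted p = 0.028). Of all genes 2.51% were called at 20:00 and 2.33% at 0:00, and 1.41% and 1.05% were called lower in OE. In DESeq2 both calls on OsGLDP also passed (adjusted p = 0.011 at 20:00 and 0.0042 at 0:00), as they did with replicates 2 and 3 alone (adjusted p = 0.0031 and 0.0016). In edgeR's test both were close to the threshold. That at 20:00 was lost in 22 of the 36 fits without 1 library, with an adjusted p up to 0.28. It was also lost with no filter on low counts (adjusted p = 0.054). With limma on log2(FPKM + 0.1) and log2(FPKM + 1) it was lost as well (adjusted p = 0.064 and 0.074). That at 0:00 was lost without GL replicate 1 or 2 or OE replicate 2 or 3 of that hour, with adjusted p values of 0.17, 0.054, 0.12 and 0.21, and it held without GL replicate 3, the library with 2 genotype labels. Whether the difference changed with the hour depended on the fit: the genotype by hour interaction of OsGLDP had an adjusted p of 0.24 in edgeR's test on all libraries and 0.064 in DESeq2. It passed with the replicate block, with replicates 2 and 3 alone (adjusted p = 0.019) and with a random block of genotype and replicate number (adjusted p = 0.036).

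At the other hours 0 of 8 members were called, beside 4.48% of all genes at 4:00, 3.31% at 8:00, 2.02% at 12:00 and 7.91% at 16:00. In the edgeR test, 1 member had an unadjusted p under 0.05 at 4:00, 0 at 8:00, 0 at 12:00 and 1 at 16:00, and DESeq2 and limma also called 0 members at these hours. Counted by libraries without overlap, the members that separated were OsGLO3 at 4:00 (17.1% of all genes), OsGLDP at 8:00 (21.8%), OsGLO1 and OsSGAT at 16:00 (24.2%), OsGLDP at 20:00 (21.2%) and OsGLDP at 0:00 (17.9%). For the interaction 0 members were called, 1 had an unadjusted p under 0.05, and 1.88% of all genes were called. DESeq2 and limma on the FPKM values also called 0. The fits with the replicate block, with replicates 2 and 3 alone and with the random block called 1, OsGLDP.

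**Figure D3:**
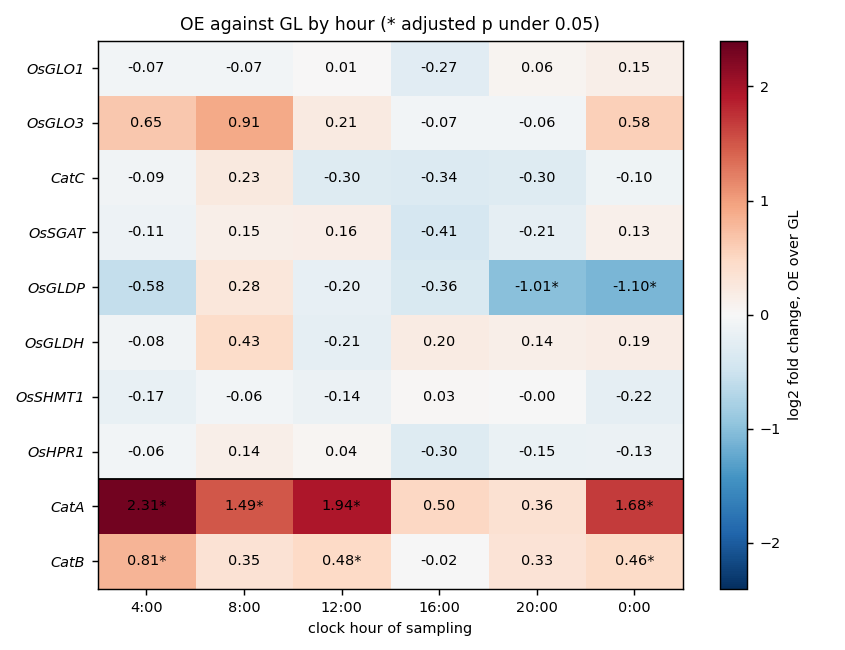
Log2 fold change of OE over GL at each hour from the edgeR fit, with red for higher and blue for lower in OE and an asterisk for an adjusted p under 0.05. The members stand above the line and the other catalase genes CatA and CatB below it. Among the members only OsGLDP at 20:00 and 0:00 carries an asterisk, while CatA reaches 2.31 at 4:00.

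OsGLDH (OS10G0516100, chr10:19894646-19896625, plus strand) encodes the H protein, which carries the intermediate between the other subunits of glycine decarboxylase. It did not follow OsGLDP. In GL it had 2198, 1457 and 1758 CPM at 0:00, its highest hour, and 678, 777 and 849.5 CPM at 8:00, its lowest, when OsGLDP was high. In OE it had 2456, 1806 and 1896 CPM at 0:00 and 1218, 792 and 760.1 CPM at 12:00. The hours did not overlap, and the means differed 2.35-fold in GL and 2.22-fold in OE. The fall from 4:00 to 8:00 passed in GL (log2 -0.94, SE 0.269, adjusted p = 0.0064) and was the only step of OsGLDH that did. In OE it was log2 -0.43 (adjusted p = 0.23). The averaged difference between genotypes was log2 0.11 (SE 0.109, adjusted p = 0.50).

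OsSHMT1 (OS03G0738400, chr3:30299524-30304100, plus strand) encodes serine hydroxymethyltransferase, which works beside glycine decarboxylase in mitochondria. In GL it had 9345, 7099.5 and 8174 CPM at 8:00 and 1298, 1225 and 1189.8 CPM at 16:00. In OE it had 9347, 7388 and 6919 CPM at 8:00 and 1713, 1024 and 1063 CPM at 16:00. No library of 16:00 came near those of 8:00, and the means differed 6.63-fold in GL and 6.22-fold in OE, the second widest range after OsGLDP. From 12:00 to 16:00 OsSHMT1 fell by log2 -1.95 in GL (SE 0.231, adjusted p = 1.1e-07) and log2 -1.77 in OE (SE 0.230, adjusted p = 6.9e-07), alongside OsGLDP. From 16:00 to 20:00 it rose by log2 0.93 in GL and 0.90 in OE, while OsGLDP went on falling. Its averaged difference was log2 -0.09 (SE 0.0911, adjusted p = 0.50), the genotypes overlapped at every hour, and with replicates 2 and 3 alone it was called (log2 -0.18, SE 0.0609, adjusted p = 0.031).

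OsHPR1 (OS02G0101500, chr2:79923-85640, minus strand) encodes hydroxypyruvate reductase, which makes glycerate. In GL it had 4934, 3902 and 3726 CPM at 0:00 and 1627, 1307 and 1118 CPM at 12:00. In OE it had 4649.8, 3344 and 3463 CPM at 0:00 and 1539, 977 and 1064 CPM at 16:00. The means differed 3.10-fold in GL and 3.20-fold in OE, without overlap of the hours. OsHPR1 fell from 8:00 to 12:00 in GL (log2 -0.88, SE 0.184, adjusted p = 3.3e-04) and in OE (log2 -0.98, SE 0.184, adjusted p = 1.2e-04), and it rose from 16:00 to 20:00 by log2 1.25 and 1.40. Its steps from 12:00 to 16:00, 20:00 to 0:00 and 0:00 to 4:00 did not pass. The averaged difference between genotypes was log2 -0.08 (SE 0.0743, adjusted p = 0.48), with overlap at every hour.

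Over the 12 group means of log2 CPM, which share their libraries and scaling between genes, OsHPR1 and OsSGAT ran together (r = 0.89), as did OsGLDP and CatC (r = 0.84) and OsGLDH and OsSGAT (r = 0.83). OsSGAT and CatC ran against each other (r = -0.83). OsGLDP, the P protein gene, and OsGLDH, the H protein gene, had r = -0.44, and OsGLDP and OsSHMT1 had r = 0.65. These values describe 12 points and carry no test. The members' mean profile did not represent each member. Its r was 0.89 with OsHPR1, 0.72 with OsGLDH, 0.70 with OsSGAT, 0.69 with OsGLO1 and 0.67 with OsSHMT1. With OsGLO3 it was 0.32, with OsGLDP 0.06 and with CatC -0.40. The gene outside the lists whose profile was most like this mean profile was OS07G0152800 (r = 0.96, 12 group means, mean 3192 CPM), followed by OS08G0416000 (r = 0.95, mean 78.8 CPM). OS03G0151100, OS01G0866400 and OS06G0152800 came next, with r from 0.946 to 0.951.

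Besides the members, 22 further identifiers of the pathway and its nitrogen cycle were examined, all with a row, of which 21 were tested. Averaged over the hours 5 of the 21 were called, 3 higher and 2 lower in OE, a share near the 26% of all genes. For 5 of the tested genes the reference table, on another assembly, holds a name in keeping with their role within 5 Mb. They are CatA, CatB, the glycolate oxidase OS07G0616500, glutamine synthetase GS2 and the ferredoxin-dependent glutamate synthase Fd-GOGAT. Near OS07G0616500 that name is GLO4, while the list used here calls the locus OsGLO5. These matches rest on name and approximate position. CatA and CatB were called, both higher in OE, and the 3 others were not, with log2 0.18 for OS07G0616500, 0.04 for GS2, which reassimilates photorespiratory ammonium in chloroplasts, and 0.09 for Fd-GOGAT. Among the 16 other tested identifiers, 1 was called higher and 2 lower, with differences from log2 -0.47 to 0.68.

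The catalase genes other than CatC had another daily profile and a difference between genotypes. CatA (OS02G0115700) in GL had 53.9, 124 and 77.0 CPM at 4:00 and 1766, 1767 and 2591 CPM at 20:00. In OE it had 294, 432 and 539.6 CPM at 4:00 and 3138, 2205 and 2542 CPM at 20:00. The OE libraries lay above the GL libraries at every hour but 20:00. At each of those hours 16.4% to 24.2% of all genes separated in either direction. CatA was higher in OE by log2 1.38 on average (SE 0.124, adjusted p = 1.8e-09), by log2 2.31 at 4:00 (SE 0.315, adjusted p = 2.0e-05) and by log2 1.94 at 12:00 (SE 0.310, adjusted p = 2.8e-04), and at 8:00 and 0:00 it was called as well. At 16:00 and 20:00 its differences were log2 0.50 and 0.36 and did not pass. Of all genes 4.48% were called at 4:00, 3.31% at 8:00, 2.02% at 12:00 and 2.33% at 0:00. CatB (OS06G0727200) was higher in OE by log2 0.40 on average (SE 0.0463, adjusted p = 1.5e-07), and was called at 4:00, 12:00 and 0:00. The call on CatB at 12:00 was lost without GL replicate 1 or 2 or OE replicate 2 or 3 of that hour (adjusted p 0.15, 0.074, 0.080 and 0.053) and with replicates 2 and 3 alone (adjusted p = 0.13). That at 0:00 was lost without GL replicate 2 or 3 or OE replicate 2 of that hour (adjusted p 0.15, 0.075 and 0.20) and with no filter on low counts (adjusted p = 0.068). The fitted peaks in GL came at 17.6 h for CatA and 17.4 h for CatB, against 11.2 h for CatC. Per length, CatC was the most abundant of the 3 catalase genes at 12:00 in GL, with 4336 ± 687 FPKM against 197 ± 20.9 for CatA and 54.0 ± 5.81 for CatB (SD, n = 3). At 20:00 the GL order changed to 1312 ± 328 FPKM for CatA, 1026 ± 88.4 for CatC and 78.7 ± 6.13 for CatB. The lowest CatA library at 20:00 in GL, with 1067 FPKM, lay below the highest CatC library, with 1123 FPKM, so that these did not separate.

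**Figure D4:**
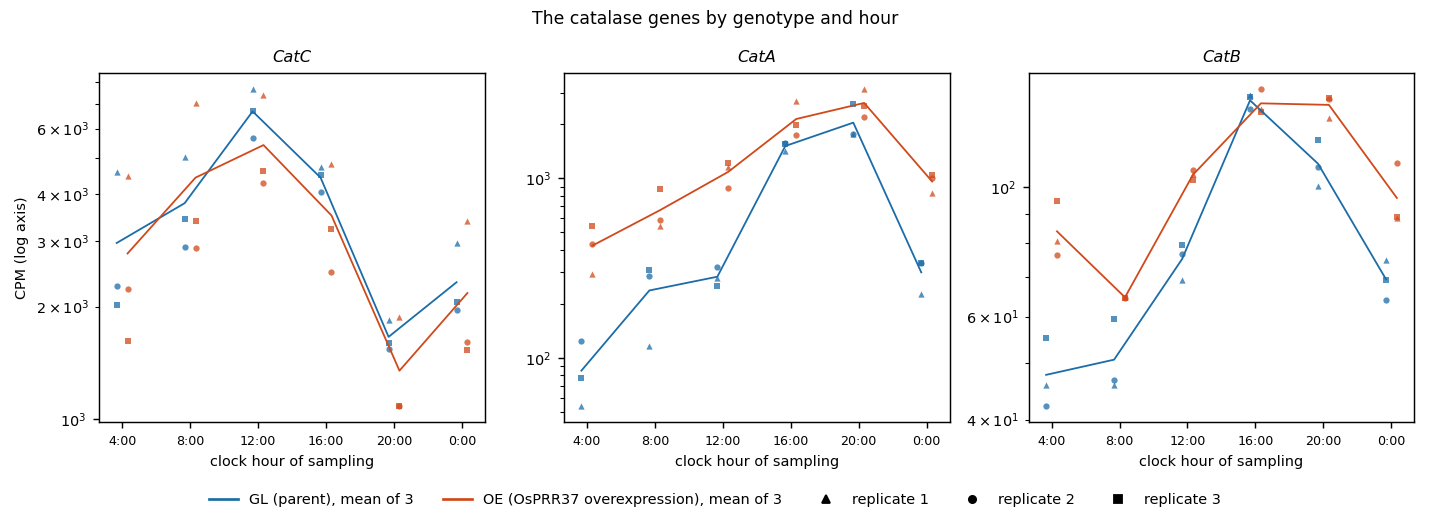
CatC, CatA and CatB in CPM (log axis) against the clock hour, with 0:00 drawn at the right, points for the 36 libraries by replicate number and lines for the means of 3 libraries. CatC is highest at 12:00, CatA at 20:00 and CatB at 16:00 in both genotypes, and OE lies above GL for CatA at 4:00, where the means are 422 and 85.1 CPM.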

How the data were processed

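The authors used TopHat2, Cuffdiff and Cufflinks on build IRGSP-1.0, per the submitters' processing notes. No source used here states a version or setting. The whole numbers of the deposited count column were taken to be rounded-up expected counts. For 99.97% of values above 0, the deposited normalised signal, divided by a library's factor, was under the count by at most 1 (tolerance 0.05 counts). The deposited FPKM values were used only to compare genes and in alternatives. Each locus was taken by its identifier; names of members are those of the rule that chose them, and the reference table, on another assembly, gave names only.

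Counts were tested with edgeR 4.0.16 (R 4.3.3) in 1 model of 12 groups over 36 libraries: filterByExpr (minimum count 10, total 15), TMM scaling, the quasi-likelihood F test, Benjamini-Hochberg adjustment over 21772 genes and a threshold of 0.05. Adjusted p-values in the text are from this test unless named. A 24-h cosine and sine model gave the wave tests. Alternatives used DESeq2 1.42.0, limma 3.58.1 on log2(FPKM + 0.1) and log2(FPKM + 1), replicate blocks and left-out libraries. Whether plants were pooled is not stated, and p-values measure the spread between these libraries.

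The members and lists were chosen with earlier results of these data known. Text names all members, pathway genes with a fitting name near them in the reference table, and the 5 genes with the most similar profile (mean log2 CPM of at least 5).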

Additional observations from a re-analysis of the deposited data

Results flagged for a closer look

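CatA, a catalase gene beside the members, had a difference between OE and GL that changed over the day: the genotype by hour interaction had an adjusted p of 0.0254 in edgeR's quasi-likelihood test, where 1.88% of all genes were called. In the 24-h wave model, the rhythm of CatA was not called different between genotypes (edgeR, adjusted p = 0.50). Its fitted peak was at 17.6 h in both. The OE libraries were higher than all GL libraries at 5 of 6 hours, from log2 0.50 at 16:00 to 2.31 at 4:00, and overlapped at 20:00 (log2 0.36). At each of those 5 hours 16.4% to 24.2% of all genes separated in either direction. The interaction was not called in 6 of the 36 fits without 1 library: GL replicate 2 at 16:00, GL replicate 3 at 20:00, OE replicates 2 and 3 at 16:00 and OE replicates 2 and 3 at 20:00, with an adjusted p of at most 0.058. Replicate 1 of CatA in GL lay below replicates 2 and 3 by log2 -0.54 on average, and the part of this in the result was not tested.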

How the results depend on the processing

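No result reversed. The count of members called between OE and GL averaged over the hours was 1, and it was 2 with the replicate block, where CatC joined (log2 -0.20, adjusted p = 0.046), and 3 with replicates 2 and 3 alone, where CatC and OsSHMT1 joined. At 16:00 it was 0, and 1 with replicates 2 and 3 alone. At 20:00 it was 1, OsGLDP, whose adjusted p was 0.0043 there and 0.0016 at 0:00 with the replicate block, and 0 without the filter on low counts and 0 with limma at either FPKM pseudocount; fits without 1 library gave 0 to 1 there and 0 to 1 at 0:00. For the interaction it was 0, and 1, OsGLDP, with the replicate block (adjusted p = 0.031), with replicates 2 and 3 alone (0.019) and with a random block of genotype and replicate number (0.036). The pathway list had 5 calls, 8 with replicates 2 and 3 alone and 3 with the random block. Fits without 1 library gave 6 to 7 members changing over the day in GL and 4 to 6 pathway calls. The cause was not tested in any of these.

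Each library's log2 CPM was taken as its deviation from the mean of its group. These deviations correlated between same-numbered GL and OE libraries of an hour by 0.0637 to 0.521 over 18 pairs. Of the 18 pairs, 16 were over 0.1 and 15 were highest with their own number. The samples share a number and are not taken as paired. A search of promoters for motifs was not run. OsGLO3, with 2 to 53 counts, is limited by depth.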

Other observations

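OS07G0152800, the gene most like the members' mean profile, had a median of 3138 CPM in GL and 3190.1 CPM in OE. It changed over the day in both genotypes (adjusted p = 2.5e-07 and 1.5e-07, edgeR), and its averaged difference was log2 -0.03 (SE 0.0726, adjusted p = 0.84). Its identifier comes just before that of OS07G0152900, the member not analysed here. The reference table, on another assembly, lists a glycolate oxidase gene named GLO5 near the same end of chromosome 7. It was not matched to OS07G0152800, which is given no name, and no source used here says whether the counts of OS07G0152800 include reads of a neighbouring locus.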
